A study of Homo sapiens with 18 samples.

Results

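The genes described here are 37 genes of mitosis and of the G2/M phase of the cell cycle, read out in 3 cell lines of chronic lymphocytic leukemia (CLL). They were picked by gene symbol from the 56609 genes of the count table, and each symbol matched 1 row. By role they fall into 9 regulators of mitotic entry, 4 genes of chromosome structure and the centromere, 10 genes of the kinetochore and the spindle checkpoint, 3 genes of mitotic exit, 9 genes of the spindle and its midzone, and 2 genes of cytokinesis. All 37 passed the filter of 10 counts over the libraries, and the lowest count of any of them in any library was 212.

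A cell enters mitosis when cyclin B binds and activates the kinase CDK1, and it leaves mitosis when the anaphase-promoting complex marks cyclin B and securin for destruction. The transcripts of this program accumulate in G2 and fall again after division, because the MuvB complex represses their promoters in resting cells and, together with B-MYB and FOXM1, activates them in cycling cells, through a DNA element named the cell cycle genes homology region (CHR). CLL cells in blood are mostly resting and divide in lymph nodes and bone marrow, where engagement of TLR9 is one of the signals that can reach them, whereas CLL cell lines divide continuously in culture.

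HG3, MEC2 and PCL12 are established B-cell lines derived from CLL and carry Epstein-Barr virus, so each line stands for 1 clone and the 3 lines do not sample the disease as a whole. CpG-stimulated cells received 2.5 µg/ml of ODN-2006, an unmethylated CpG oligonucleotide that engages human TLR9, and were collected after 4 h, beside unstimulated cells of the same line. All cells were grown in RPMI medium with fetal bovine serum. The 18 libraries form 6 groups of 3, a CpG-stimulated and an unstimulated group for each line. The design asks how each line responded to TLR9 engagement, and here also at which level each line transcribed the mitotic genes before the stimulus. The labels do not say whether replicates were separate cultures, so P values measure the spread between these libraries.

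The libraries held 20382943 to 67308932 counts assigned to genes. A pair of libraries stood apart by their share of counts on mitochondrially encoded genes, namely unstimulated HG3 replicate 2 with 20.2% and CpG-stimulated MEC2 replicate 2 with 19.7%, against 2.82 to 9.28% in the others. PCL12 replicates 2 and 3, in both groups, held transcripts that marked MEC2: over 45 genes chosen because all MEC2 libraries held 20 CPM or more of each and PCL12 replicate 1 held no more than 10% of the MEC2 mean, the median level in them was 29.0 to 31.3% of the MEC2 level, whereas the low level in replicate 1 was set by the choice. The same choice made on PCL12 replicate 2 or on replicate 3 left 1 and 4 genes in place of 45. None of the 37 genes is among these 45, since all lay above 10% of the MEC2 mean in PCL12 replicate 1. Their absence was thus set by the choice as well. How far MEC2 transcripts enter their levels in PCL12 replicates 2 and 3 was not tested. All 6 B-cell markers examined were detected in all 18 libraries and summed to 2115 to 3673 CPM, the count of a gene scaled to the size of its library. CD5, a surface antigen of CLL, averaged 44.7 CPM in HG3, 0.0285 CPM in MEC2 and 0.896 CPM in PCL12. FCER2, the other CLL antigen examined, was detected in all 18 libraries, at 285 to 3248 CPM. It averaged 2134 CPM in HG3, 422 CPM in MEC2 and 576 CPM in PCL12. These averages of both antigens are of unstimulated cells. The 12 markers of other cell types summed in unstimulated cells to 32.6 to 89.4 CPM in HG3, 12.9 to 18.6 CPM in MEC2 and 7.55 to 16.8 CPM in PCL12, with COL1A1 making up 5.13 to 81.5 CPM per library and HBB at 0 in all 18. In CpG-stimulated cells the 12 markers summed to 29.8 to 47.2 CPM in HG3, 22.8 to 40.6 CPM in MEC2 and 8.64 to 14.35 CPM in PCL12. Their part in the differences between lines or upon CpG was not tested.

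The promoters of these genes were read first, since the CHR and the CCAAT box are the elements through which they are known to be switched on in G2. RefSeq start sites on GRCh38.p14 were found for 31 of the 37 genes. Entries for AURKA, TPX2, FOXM1, UBE2C, BIRC5 and TTK were not matched. In the 250 bases before the start, on both strands, the letters TTTGAA or TTTAAA, which are the forms of the CHR searched, stood in 25 of 31 promoters or 80.6%, against 22.1% of all 27305 promoters of the same length. The letters CCAAT stood in 80.6% against 33.0%, 2 or more CCAAT in 58.1% against 10.0%, and a CHR together with a CCAAT in 71.0% against 7.85%.

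TTTGAA stood in 61.3% of the 31 promoters and in 13.6% of all, and TTTAAA in 38.7% and 11.4%. Among 45 promoters of other genes of G2/M a CHR stood in 46.7%, CCAAT in 64.4% and both in 37.8%. Among 28 promoters of genes of the G1/S transition, an earlier step of the cycle, a CHR stood in 14.3%, CCAAT in 64.3% and both in 7.14%, and among 16 promoters of genes of the anaphase-promoting complex and its regulators they stood in 12.5%, 31.2% and 0%. KIF2C, NUF2 and NDC80 had neither the CHR letters nor CCAAT in this window, and BUB1, CCNA2 and AURKB had CCAAT alone. A match is a run of letters and not a measured site, and the absence of these letters says nothing of a factor.

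The last 120 bases before the start are shown, 5′ to 3′ on the strand of the gene, for 10 genes that lie at the ends of the comparisons between lines given further on. Capitals mark the CHR letters and CCAAT on either strand. TTCAAA is thus TTTGAA read on the other strand, ATTGG is likewise CCAAT, and a run of CCAAT into ATTGG that shares 2 letters holds 1 match on each strand.
CCNB2, chr15:59105026-59105145, plus strand: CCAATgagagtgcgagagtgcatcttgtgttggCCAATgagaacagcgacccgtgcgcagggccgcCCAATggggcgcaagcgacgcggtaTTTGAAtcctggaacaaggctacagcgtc
BUB1B, chr15:40160949-40161068, plus strand: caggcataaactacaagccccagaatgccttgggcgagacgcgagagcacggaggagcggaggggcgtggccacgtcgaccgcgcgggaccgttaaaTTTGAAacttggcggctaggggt
AURKB, chr17:8210226-8210345, minus strand: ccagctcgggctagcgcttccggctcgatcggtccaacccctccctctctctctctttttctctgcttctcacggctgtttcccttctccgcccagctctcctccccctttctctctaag
CDC20, chr1:43358861-43358980, plus strand: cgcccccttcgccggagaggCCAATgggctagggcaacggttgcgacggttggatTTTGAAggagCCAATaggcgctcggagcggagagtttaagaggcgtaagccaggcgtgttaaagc
PTTG1, chr5:160421735-160421854, plus strand: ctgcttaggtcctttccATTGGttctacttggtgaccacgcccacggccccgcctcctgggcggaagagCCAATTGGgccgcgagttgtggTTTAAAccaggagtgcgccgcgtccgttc
NUSAP1, chr15:41332761-41332880, plus strand: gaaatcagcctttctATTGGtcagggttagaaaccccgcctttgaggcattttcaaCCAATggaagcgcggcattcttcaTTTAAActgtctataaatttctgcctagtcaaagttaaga
HMMR, chr5:163460512-163460631, plus strand: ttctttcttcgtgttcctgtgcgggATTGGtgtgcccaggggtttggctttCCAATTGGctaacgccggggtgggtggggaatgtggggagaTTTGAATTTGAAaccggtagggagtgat
DLGAP5, chr14:55191586-55191705, minus strand: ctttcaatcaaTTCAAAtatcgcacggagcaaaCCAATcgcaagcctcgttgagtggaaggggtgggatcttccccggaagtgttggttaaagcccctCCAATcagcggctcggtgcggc
KIF23, chr15:69414229-69414348, plus strand: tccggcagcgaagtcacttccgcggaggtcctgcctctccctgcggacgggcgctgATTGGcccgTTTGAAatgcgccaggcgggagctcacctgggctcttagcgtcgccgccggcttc
PRC1, chr15:90994536-90994655, minus strand: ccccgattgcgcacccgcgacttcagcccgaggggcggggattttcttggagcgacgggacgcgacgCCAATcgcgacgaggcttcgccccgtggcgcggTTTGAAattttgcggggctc

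CCNB2 held both elements, with 3 CCAAT boxes at 120, 87 and 54 bases before the start and TTTGAA at 29 bases before it, counted to the first letter of the match. PRC1, HMMR, BUB1B and PTTG1 likewise had a CHR in the 29 bases next to the start, and HMMR had TTTGAA at both 28 and 22 bases before it. In KIF23 and CDC20 the CHR lay 55 and 65 bases before the start, and in DLGAP5 it lay 109 bases before it on the other strand. AURKB had no match in the 120 bases shown and a single ATTGG at 153 bases before the start. These are RefSeq starts, and GENCODE 44 places the starts of some of these genes, BUB1B and KIF23 among them, at other bases. For AURKB, NUSAP1, HMMR and PRC1 the bases shown lie within the gene as GENCODE 44 spans it. Matches, and the lack of them in AURKB, thus depend on the start used.

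In unstimulated cells the mitotic genes were transcribed at the highest level in MEC2 and mostly at the lowest level in HG3. Of the 37 genes, 27 were ordered MEC2, PCL12 and HG3 from the highest to the lowest mean, and 7 were ordered MEC2, HG3 and PCL12. The exceptions were PTTG1, highest in HG3, and AURKB and HMMR, highest in PCL12. Summed over the 37 genes, transcripts amounted to 3178 ± 413 CPM in HG3 (SD, n = 3), with 2923 CPM in the lowest and 3654 CPM in the highest library. The sum was 6056 ± 903 CPM in MEC2, from 5014 to 6599 CPM, and 4184 ± 830 CPM in PCL12, from 3587 to 5131 CPM. All libraries of MEC2 thus lay above all those of HG3, and PCL12 overlapped both. CPM values are scaled by TMM factors and not by transcript length, so they compare 1 gene between libraries. In bulk RNA a larger share of cells in G2/M and more transcript per cell cannot be told apart.

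**Figure D1:**
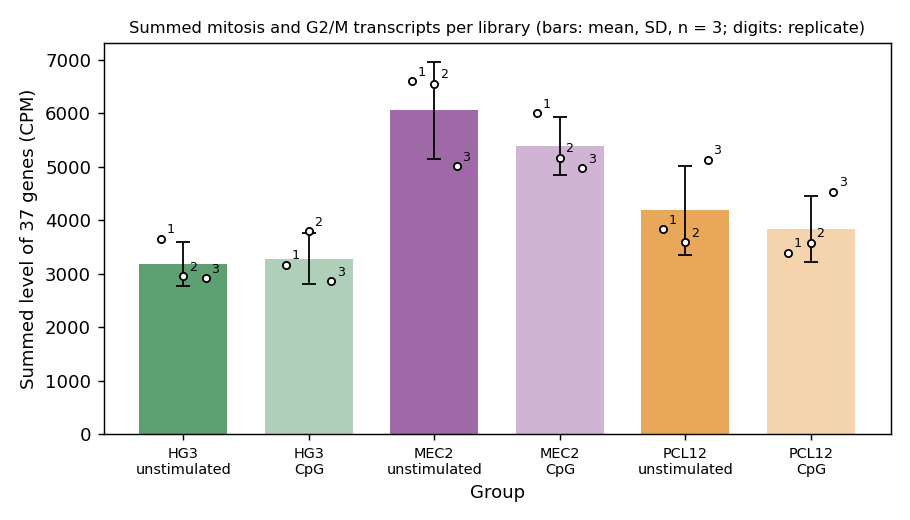
Summed level of the 37 genes in each of the 18 libraries, in CPM, by cell line and treatment; points are libraries with their replicate number, bars are group means from 0, and whiskers are SD (n = 3). The unstimulated MEC2 libraries sit between 5014 and 6599 CPM and the unstimulated HG3 libraries between 2923 and 3654 CPM.

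Among the regulators, the cyclins that partner CDK1 were among the genes that lay farthest apart between MEC2 and HG3. CCNB2, a cyclin B, measured 50.6, 43.8 and 43.8 CPM in the 3 unstimulated HG3 libraries, 143, 159 and 89.03 CPM in MEC2, against 73.4, 59.3 and 77.7 CPM in PCL12. The lowest MEC2 library was above the highest HG3 and PCL12 libraries, and PCL12 was above HG3. CCNB1, the main mitotic cyclin B, measured 86.8, 75.4 and 58.1 CPM in HG3, 175, 181 and 178 CPM in MEC2, against 126, 122 and 190.1 CPM in PCL12. Its MEC2 libraries were close together, and the highest PCL12 library lay above them. CCNA2, the cyclin of S phase and G2, averaged 54.7 ± 19.6 CPM in HG3, 149 ± 6.77 CPM in MEC2 and 97.3 ± 42.4 CPM in PCL12 (SD, n = 3, here and for the means that follow). CCNF, the substrate receptor of a ubiquitin ligase, averaged 52.2 ± 3.63 CPM in HG3, 114 ± 15.6 CPM in MEC2 and 75.5 ± 17.8 CPM in PCL12. The kinase CDK1 itself differed less, with 62.05 ± 13.3 CPM in HG3, 94.5 ± 20.4 CPM in MEC2 and 61.03 ± 18.1 CPM in PCL12.

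FOXM1, the transcription factor that activates G2/M promoters, averaged 85.2 ± 17.9 CPM in HG3, 165 ± 11.6 CPM in MEC2 and 125 ± 24.9 CPM in PCL12. PLK1, a kinase of mitotic entry, averaged 79.5 ± 21.9 CPM in HG3, 193 ± 23.2 CPM in MEC2 and 132 ± 30.5 CPM in PCL12. The centrosomal kinase AURKA averaged 39.4 ± 4.08 CPM in HG3, 99.2 ± 0.218 CPM in MEC2 and 77.9 ± 24.3 CPM in PCL12. All of these had non-overlapping libraries in HG3 and MEC2. TPX2, which activates AURKA on the spindle, averaged 145 ± 23.95 CPM in HG3, 248 ± 20.6 CPM in MEC2 and 188 ± 29.9 CPM in PCL12.

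Genes of chromosome structure and the centromere followed the same order of means. TOP2A, the topoisomerase that separates sister chromatids, averaged 237 ± 81.6 CPM in HG3, 447 ± 107 CPM in MEC2 and 324 ± 44.9 CPM in PCL12. MKI67, which encodes the proliferation antigen Ki-67, averaged 527 ± 198 CPM in HG3, 934 ± 206 CPM in MEC2 and 636 ± 65.8 CPM in PCL12, and its HG3 libraries had the widest spread of the lines relative to the mean. CENPA, the histone variant of the centromere, averaged 13.98 ± 2.96 CPM in HG3, 33.3 ± 4.50 CPM in MEC2 and 23.2 ± 6.94 CPM in PCL12, and its chaperone HJURP averaged 57.00 ± 23.6 CPM in HG3, 107 ± 3.67 CPM in MEC2 and 67.6 ± 17.4 CPM in PCL12.

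In the kinetochore and checkpoint group, BUB1B, which encodes the checkpoint protein BubR1 and spans chr15:40161023-40221123 in GENCODE 44 (GRCh38), measured 79.6, 51.5 and 64.9 CPM in HG3, 198, 199 and 196 CPM in MEC2, against 90.98, 115 and 160.2 CPM in PCL12. Its 3 lines did not overlap. BUB1, a checkpoint kinase, averaged 67.6 ± 22.6 CPM in HG3, 146 ± 12.7 CPM in MEC2 and 115 ± 28.1 CPM in PCL12. TTK, the kinase that sets the checkpoint going, measured 41.6, 30.1 and 35.2 CPM in HG3, 51.1, 45.1 and 38.1 CPM in MEC2, against 23.3, 22.2 and 36.2 CPM in PCL12, and its ranges in MEC2 and HG3 overlapped.

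Members of the chromosomal passenger complex, which corrects faulty attachments, differed from each other in their pattern. AURKB, its kinase, measured 56.99, 85.01 and 45.02 CPM in HG3, 62.3, 52.1 and 72.02 CPM in MEC2, against 102, 68.7 and 87.2 CPM in PCL12, so that the HG3 range enclosed the MEC2 range. BIRC5, which encodes survivin of the same complex, averaged 61.9 ± 8.51 CPM in HG3, 135 ± 6.33 CPM in MEC2 and 77.5 ± 2.03 CPM in PCL12, with MEC2 above the other lines in every library. The microtubule-binding subunits NDC80 and NUF2 averaged 45.2 ± 15.01 CPM in HG3, 59.7 ± 14.2 CPM in MEC2 and 43.99 ± 7.08 CPM in PCL12, and 33.01 ± 13.8 CPM in HG3, 60.6 ± 13.4 CPM in MEC2 and 38.3 ± 8.29 CPM in PCL12, respectively. The kinetochore kinesin CENPE averaged 73.1 ± 13.5 CPM in HG3, 134 ± 36.5 CPM in MEC2 and 89.6 ± 24.7 CPM in PCL12. CENPF, a large protein of the outer kinetochore, averaged 193 ± 28.8 CPM in HG3, 276 ± 70.7 CPM in MEC2 and 189 ± 46.6 CPM in PCL12, and KIF2C, a kinesin that shortens microtubules, averaged 91.5 ± 6.89 CPM in HG3, 159 ± 23.7 CPM in MEC2 and 112 ± 15.3 CPM in PCL12.

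Of the genes of mitotic exit, CDC20, which activates the anaphase-promoting complex, measured 82.3, 72.3 and 53.5 CPM in HG3, 165, 164 and 172 CPM in MEC2, against 134, 122 and 197 CPM in PCL12. Each library of MEC2 and of PCL12 was above each library of HG3. UBE2C, which hands ubiquitin to that complex, measured 76.9, 200.2 and 63.7 CPM in HG3, 169.9, 196 and 147 CPM in MEC2, against 117, 79.7 and 125 CPM in PCL12. PTTG1, which encodes securin, the inhibitor of sister separation, measured 47.9, 117 and 48.7 CPM in HG3, 80.6, 79.2 and 47.1 CPM in MEC2, against 35.1, 29.2 and 42.99 CPM in PCL12. The high HG3 value of both UBE2C and PTTG1 came from replicate 2, 1 of the libraries rich in mitochondrial counts, and the other HG3 libraries lay far below it.

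Among genes of the spindle and midzone, KIF23, a kinesin of the central spindle that spans chr15:69414246-69448427, measured 66.9, 40.6 and 64.1 CPM in HG3, 179.6, 179.7 and 122 CPM in MEC2, against 65.2, 74.6 and 102 CPM in PCL12, and every MEC2 library was above every other one. PRC1, which bundles midzone microtubules, measured 108, 103 and 93.98 CPM in HG3, 267, 262 and 153 CPM in MEC2, against 107, 99.5 and 131 CPM in PCL12, again with MEC2 apart and with HG3 and PCL12 overlapping. NUSAP1, a microtubule-binding protein of the spindle, measured 165, 194 and 145 CPM in HG3, 368, 351 and 228 CPM in MEC2, against 145, 125 and 183 CPM in PCL12. For these 3 genes MEC2 replicate 3 was the lowest MEC2 library.

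DLGAP5, a spindle assembly factor, measured 61.9, 36.7 and 42.9 CPM in HG3, 119, 115 and 107 CPM in MEC2, against 78.5, 74.8 and 132 CPM in PCL12. HMMR, a spindle protein that is also known as a hyaluronan receptor, measured 51.2, 30.8 and 24.7 CPM in HG3, 59.8, 58.5 and 52.6 CPM in MEC2, against 61.2, 58.6 and 94.2 CPM in PCL12. In both genes every PCL12 library was above every HG3 library. KIF11, the kinesin that pushes spindle poles apart, averaged 98.7 ± 18.5 CPM in HG3, 165 ± 40.9 CPM in MEC2 and 143 ± 30.5 CPM in PCL12. ASPM, a protein of the spindle pole, averaged 80.9 ± 16.4 CPM in HG3, 179 ± 40.5 CPM in MEC2 and 145 ± 50.4 CPM in PCL12, and CKAP2L, a spindle protein, averaged 29.1 ± 8.26 CPM in HG3, 54.4 ± 15.6 CPM in MEC2 and 32.4 ± 5.22 CPM in PCL12. KIF20A, a midzone kinesin, averaged 45.5 ± 15.8 CPM in HG3, 65.96 ± 8.75 CPM in MEC2 and 44.3 ± 8.37 CPM in PCL12.

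For cytokinesis, ECT2, which activates RhoA at the division plane, averaged 27.9 ± 14.8 CPM in HG3, 68.9 ± 9.50 CPM in MEC2 and 46.2 ± 19.7 CPM in PCL12. ANLN, the scaffold protein anillin of the contractile ring, averaged 30.98 ± 8.23 CPM in HG3, 74.8 ± 5.80 CPM in MEC2 and 44.5 ± 14.99 CPM in PCL12. In both genes the mean of PCL12 lay between those of the other lines.

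**Figure D2:**
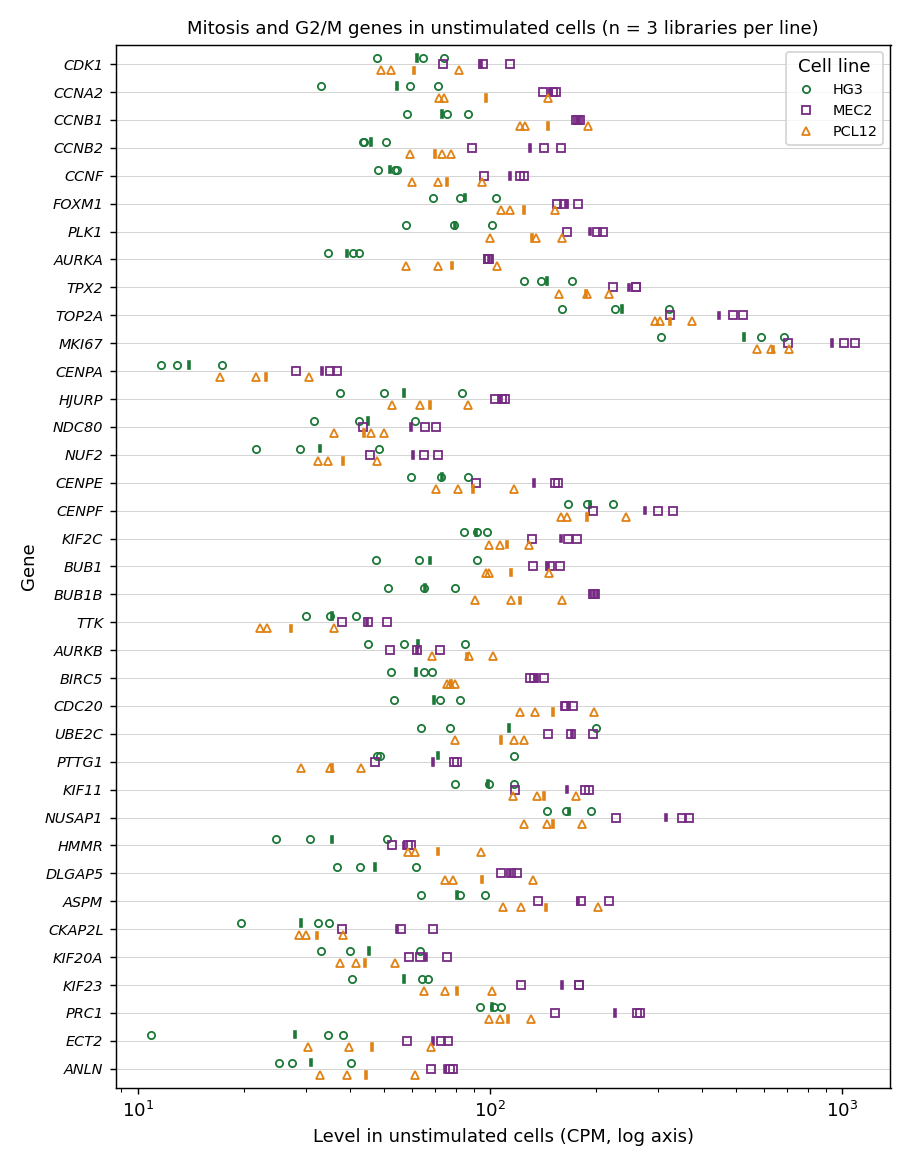
Unstimulated level of each of the 37 genes by role, in CPM on a log axis; each point is 1 library of HG3, MEC2 or PCL12 (n = 3 per line) and each tick is a mean. For BUB1B, the MEC2 libraries sit at 196 to 199 CPM and the HG3 libraries at 51.5 to 79.6 CPM; for AURKB and PTTG1 the points of MEC2 and HG3 overlap.

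MEC2 against HG3 gave the largest difference between lines. By the quasi-likelihood test of edgeR, with P values adjusted by Benjamini-Hochberg over the 31872 genes tested, 26 of the 37 genes were higher in MEC2 and 0 were lower at an adjusted p under 0.05. Of all genes tested, 4.81% were called higher and 4.97% lower, and of the 9306 genes that averaged 10 CPM or more, to which all 37 belong, 8.38% were called higher. The median Log2FC of the 37 was 0.91, against 0 over all genes tested and 0.03 over those with at least 10 CPM, and 35 of 37 were positive. The libraries of the lines did not overlap, with MEC2 higher, for 28 of 37 genes, against 11.6% of all genes tested.

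BUB1B had the highest value, 3.02-fold (Log2FC = 1.60, SE = 0.25, adjusted p = 4.796e-05, 95% interval 1.09 to 2.10). CCNB2 was 2.82-fold higher (Log2FC = 1.498, SE = 0.28, adjusted p = 0.000484), and KIF23 was 2.80-fold higher (Log2FC = 1.49, SE = 0.25, adjusted p = 0.000174). These encode a checkpoint protein, a cyclin B and a midzone kinesin, so the genes with the highest values came from different steps of mitosis. At the other end, PTTG1 gave a Log2FC of -0.05 (95% interval -0.69 to 0.60, adjusted p = 1), AURKB one of 0.00 (-0.53 to 0.52, adjusted p = 1) and TTK one of 0.33 (-0.19 to 0.84, adjusted p = 0.458). The upper bounds of AURKB and PTTG1 lay below the median of the list, and that of TTK did as well.

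By role, 7 of 9 regulators were higher in MEC2, with a median Log2FC of 1.27. They were CCNA2 (1.45, adjusted p = 0.00261), AURKA (1.33, adjusted p = 0.00225), CCNB1 (1.28, adjusted p = 0.00211), FOXM1 (0.95, adjusted p = 0.0123), PLK1 (1.27) and CCNF (1.13), beside CCNB2. CDK1 (0.61, adjusted p = 0.144) and TPX2 (0.77, adjusted p = 0.0522) did not pass. Of the chromosome genes 3 of 4 passed, CENPA (1.25), HJURP (0.91) and TOP2A (0.91), and MKI67 did not (0.83, adjusted p = 0.0524).

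Of the kinetochore genes 6 of 10 passed, which were BUB1 (1.11), BIRC5 (1.13), NUF2 (0.88), CENPE (0.87) and KIF2C (0.80) beside BUB1B, whereas CENPF (0.51) and NDC80 (0.40) did not. CDC20 (1.27) was the 1 of 3 exit genes that passed, and UBE2C (0.59, adjusted p = 0.305) did not. Of the spindle genes 7 of 9 passed: DLGAP5 (1.27), PRC1 (1.16), ASPM (1.14), NUSAP1 (0.91), CKAP2L (0.90) and KIF11 (0.74, adjusted p = 0.0496) beside KIF23. HMMR (0.68) and KIF20A (0.54) did not pass. Both cytokinesis genes were higher, ECT2 (1.30) and ANLN (1.27).

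When each library was left out in turn, 18 to 26 of the genes were called higher in MEC2, and 18 of the 26 kept their call each time. The number fell to 18 without unstimulated MEC2 replicate 1 or replicate 2. The other 8 lost it without at least 1 library: KIF11 (adjusted p up to 0.2, without MEC2 replicate 2), NUF2 (0.194, without HG3 replicate 3), CKAP2L (0.178, without MEC2 replicate 2), HJURP (0.165, without HG3 replicate 3), CENPE (0.142, without MEC2 replicate 1), KIF2C (0.134, without MEC2 replicate 2), TOP2A (0.106, without MEC2 replicate 1) and NUSAP1 (0.0862, without MEC2 replicate 1).

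PCL12 against HG3 gave a smaller difference in the same direction for most genes, with a median Log2FC of 0.47 and 29 of 37 genes positive. The HG3 libraries are those of the comparison before it, so the comparisons are not independent. At an adjusted p under 0.05, 8 genes were higher in PCL12, against 4.87% of all genes tested, and PTTG1 was lower, against 4.57%. Of the 9306 genes with at least 10 CPM, 682 were called higher and 681 lower. The highest values were those of CDC20 (Log2FC = 1.12, SE = 0.30, adjusted p = 0.0144), DLGAP5 (Log2FC = 1.01, SE = 0.28, adjusted p = 0.0184) and HMMR (Log2FC = 1.004, SE = 0.28, adjusted p = 0.0216). CCNB1 (0.99, adjusted p = 0.0176), AURKA (0.99, adjusted p = 0.0254), BUB1B (0.90, adjusted p = 0.0149), ASPM (0.84, adjusted p = 0.0451) and BUB1 (0.76, adjusted p = 0.0495) were the others called higher. The lowest values were those of PTTG1 (Log2FC = -0.99, SE = 0.32, adjusted p = 0.0471), TTK (Log2FC = -0.39, SE = 0.25, adjusted p = 0.374) and NUSAP1 (Log2FC = -0.15, SE = 0.24, adjusted p = 0.793), of which TTK and NUSAP1 did not pass.

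Every 1 of these 9 calls ended without at least 1 library. Without unstimulated PCL12 replicate 3, in which 36 of the 37 genes were highest within that group, 0 genes were called higher, without HG3 replicate 3 the number was 1, the call of BUB1B, and without HG3 replicate 2 it was 4, whereas without HG3 replicate 1 it was 10. Without PCL12 replicates 2 and 3, the libraries with the higher level of genes that marked MEC2, 0 genes were called higher and the median Log2FC was 0.33. PTTG1 lost its call without HG3 replicate 2 (Log2FC = -0.41, adjusted p = 0.434) and also without PCL12 replicate 1 (0.116), replicate 2 (0.179) or replicate 3 (0.0607).

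PCL12 against MEC2, which reuses the libraries of both, gave a median Log2FC of -0.57 with 35 of 37 genes negative. NUSAP1 (Log2FC = -1.06, SE = 0.25, adjusted p = 0.0172), PRC1 (Log2FC = -1.02, SE = 0.25, adjusted p = 0.0276) and KIF23 (Log2FC = -0.996, SE = 0.25, adjusted p = 0.0309), which act on the spindle and midzone, were lower in PCL12, and they were the only 3 genes called, against 0.524% of all genes called lower and 1.53% called higher. The highest values were those of AURKB (Log2FC = 0.47, SE = 0.26, adjusted p = 0.504), HMMR (Log2FC = 0.32, SE = 0.28, adjusted p = 0.73) and CDC20 (Log2FC = -0.14, SE = 0.30, adjusted p = 0.975), none of which passed. At an unadjusted P under 0.05, 17 genes were lower and 0 higher, against 11% of all genes in either direction. By direction, 1461 of the 31872 genes tested were lower at this P and 2037 higher. Of the 9306 genes with at least 10 CPM, 718 were lower and 838 higher. None of the 3 calls was kept without unstimulated MEC2 replicate 1 or 2 or PCL12 replicate 1 or 2, and without MEC2 replicate 3 the number was 4. Without PCL12 replicates 2 and 3 it was 0, and the median Log2FC was -0.65.

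**Figure D3:**
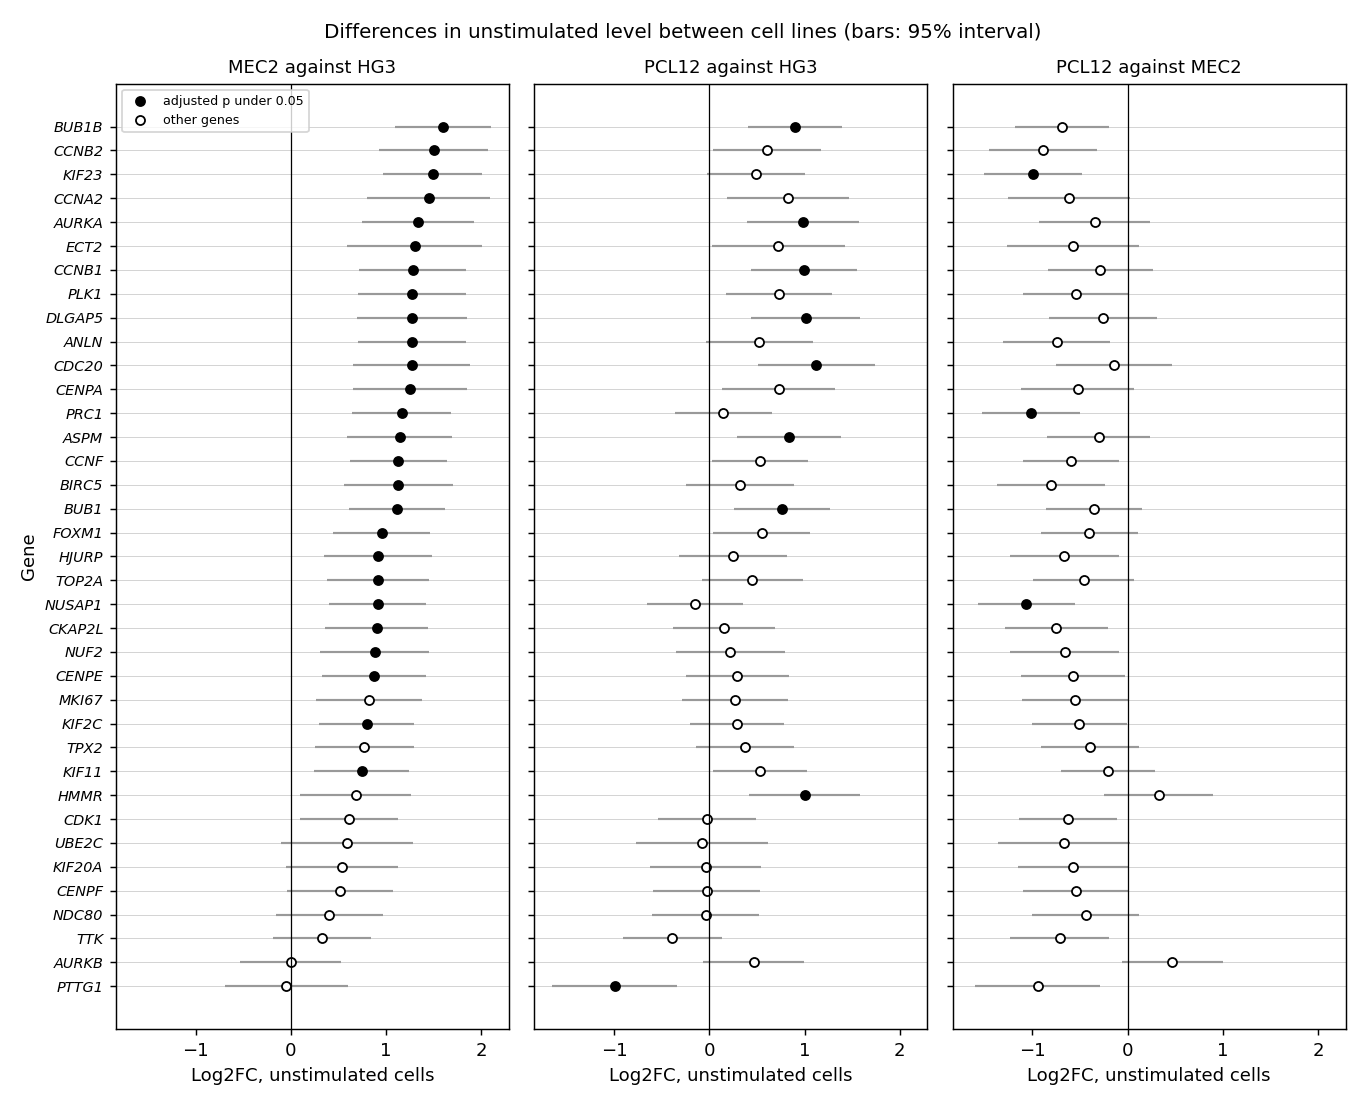
Log2FC between unstimulated lines for each of the 37 genes, ordered by MEC2 against HG3, from edgeR's quasi-likelihood fit; points are estimates and bars are 95% intervals, with filled points for an adjusted p under 0.05. In MEC2 against HG3 26 genes are filled on the right of 0, from KIF11 at 0.74 to BUB1B at 1.60; in PCL12 against HG3 8 are filled on the right and PTTG1 on the left; in PCL12 against MEC2 NUSAP1, PRC1 and KIF23 are filled on the left.

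The differences between lines stood beside the promoter letters as follows. Of the 25 genes with a CHR in the window, 19 were higher in MEC2 than in HG3, with a median Log2FC of 1.13, and of the 6 without one, KIF2C, NUF2, BUB1, CCNA2, AURKB and NDC80, 4 were higher, with a median of 0.84. CCNA2 and BUB1, which have CCAAT alone, were among those called. AURKB, also with CCAAT alone before its RefSeq start, had a Log2FC of 0.00. Genes with and without the letters were thus found among both the called and the other genes.

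CpG stimulation for 4 h gave no call in any of the 37 genes. In HG3, 0 of 37 passed an adjusted p of 0.05 in either direction and 0 passed an unadjusted P of 0.05 by edgeR, against 0.00314% of all genes called higher, 0% called lower and 3.73% at the unadjusted P. In MEC2 and PCL12 the counts were likewise 0 and 0, against 0.00314% and 0% of all genes called higher, 0% and 0% called lower, and 2.46% and 2.09% at the unadjusted P. DESeq2 gave 0 and 0 in each line, and limma-voom gave 0 at the adjusted p and 1 gene at the unadjusted P, BIRC5 in MEC2. Averaged over the lines, edgeR gave 0 and 0 as well, against 0.00941% of all genes called higher, 0% called lower and 4.04% at the unadjusted P. The sum over the 37 genes was 3278 ± 476 CPM in CpG-stimulated HG3, 5381 ± 542 CPM in MEC2 and 3837 ± 611 CPM in PCL12. Each of these means differed from that of the unstimulated libraries by less than the SD of the unstimulated group, which leaves the pairing aside. Within replicate pairs the ratio of the sums, CpG-stimulated over unstimulated, was 0.868, 1.28 and 0.98 in HG3 for replicates 1, 2 and 3, and 0.909, 0.788 and 0.993 in MEC2. For PCL12 the ratios were 0.886, 0.997 and 0.884, so all 3 pairs of MEC2 and of PCL12 lay below 1.

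The median Log2FC of the 37 genes upon CpG was 0.07 in HG3 with 24 genes positive, -0.20 in MEC2 with 35 genes negative, -0.14 in PCL12 with 31 genes negative and -0.11 over the lines with 32 genes negative. Medians of all genes tested were 0, 0, 0.02 and 0.03. Genes with a Log2FC below 0 made up 43.9% of all genes tested in MEC2 and 51.3% of those with at least 10 CPM. These genes move together within a library, so the count of signs in 1 line is not a count of independent results. In PCL12 the median was 0.04 without unstimulated replicate 3 and -0.24 without CpG-stimulated replicate 3, each time with the partner of the pair kept, whereas the medians within the 3 pairs were all below 0, and in HG3 it ranged from -0.07 to 0.24 over the libraries left out.

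The smallest P values in HG3 were those of genes of mitotic exit. PTTG1 measured 43.02, 59.2 and 48.00 CPM in CpG-stimulated against 47.9, 117 and 48.7 CPM in unstimulated HG3 (Log2FC = -0.51, SE = 0.32, 95% interval -1.16 to 0.14, adjusted p = 1). UBE2C measured 71.7, 109 and 60.3 CPM against 76.9, 200.2 and 63.7 CPM (Log2FC = -0.496, SE = 0.34, 95% interval -1.19 to 0.20, adjusted p = 1). Replicate 2 was the highest library of both groups for both genes, and the groups overlapped. Without unstimulated HG3 replicate 2 the Log2FC was 0.08 for PTTG1 and 0.22 for UBE2C, while keeping its partner, CpG-stimulated replicate 2, the highest of that group. Within replicate pairs both genes were lower in all 3 pairs, with log2 ratios of -0.155, -0.987 and -0.02 for PTTG1 and -0.10, -0.87 and -0.08 for UBE2C, so the size of the difference rested on replicate 2. The highest Log2FC in HG3 was that of ECT2, 0.46, with a 95% interval of -0.24 to 1.15.

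In MEC2, CCNB2 measured 133, 65.2 and 89.5 CPM in CpG-stimulated against 143, 159 and 89.03 CPM in unstimulated cells (Log2FC = -0.44, SE = 0.27, 95% interval -1.004 to 0.12, adjusted p = 1). BIRC5 measured 141, 50.6 and 108 CPM against 142, 134 and 129.9 CPM (Log2FC = -0.44, SE = 0.27, 95% interval -1.001 to 0.13, adjusted p = 1). In both genes the lowest value was that of CpG-stimulated replicate 2, the other library rich in mitochondrial counts. Without it the Log2FC was -0.22 for CCNB2 and -0.11 for BIRC5, and without CpG-stimulated replicate 1 it was -0.75 and -0.77. CCNB1, CDC20 and DLGAP5 were the genes whose CpG-stimulated libraries all lay below the unstimulated ones in MEC2, against 2.2% of all genes. CCNB1 measured 161, 85.7 and 159 CPM against 175, 181 and 178 CPM, with a Log2FC of -0.40. In this gene too replicate 2 was the lowest, and replicates 1 and 3 were close to the unstimulated values. In HG3 and PCL12 no gene of the list had such separate groups with CpG lower, against 1.59% and 2.02% of all genes.

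In PCL12, ANLN measured 25.7, 31.3 and 45.8 CPM in CpG-stimulated against 32.9, 39.3 and 61.5 CPM in unstimulated cells (Log2FC = -0.38, SE = 0.27, 95% interval -0.94 to 0.18, adjusted p = 1). KIF20A measured 27.4, 29.7 and 45.6 CPM against 41.7, 37.6 and 53.7 CPM (Log2FC = -0.37, SE = 0.28, 95% interval -0.96 to 0.21, adjusted p = 1). Both were lower in each of the 3 replicate pairs, and the groups overlapped. Without unstimulated replicate 3 the Log2FC was -0.09 for ANLN and -0.23 for KIF20A, and without CpG-stimulated replicate 3 it was -0.63 and -0.62. Over the lines, NDC80 (Log2FC = -0.30, SE = 0.16, 95% interval -0.63 to 0.02, adjusted p = 1) and UBE2C (Log2FC = -0.34, SE = 0.19, 95% interval -0.74 to 0.06, adjusted p = 1) had the smallest P values, and without unstimulated HG3 replicate 2 the Log2FC of UBE2C was -0.10.

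The design pairs a CpG-stimulated with an unstimulated sample in each replicate series. Within pairs the median log2 ratio of the 37 genes was -0.16, 0.51 and -0.02 in HG3, -0.15, -0.47 and 0.00 in MEC2 for replicates 1, 2 and 3. In PCL12 it was -0.20, -0.01 and -0.22. Over all genes with at least 10 CPM the median was 0.23 in HG3 pair 2. In the other pairs it lay between -0.07, in PCL12 pair 3, and 0.03, in PCL12 pair 2. The pairs that stood out were those holding a library rich in mitochondrial counts, HG3 replicate 2 and MEC2 replicate 2, and they lay on opposite sides of 0. In HG3 pair 2 the ratios ran from -0.99 for PTTG1 to 1.72 for ECT2, and in MEC2 pair 2 from -1.40 for BIRC5 to 0.39 for ASPM. No gene of the list was higher in all 3 pairs of a line, against 7.89%, 11.4% and 7.45% of the genes with at least 10 CPM in HG3, MEC2 and PCL12. Genes lower in all 3 numbered 4 in HG3, namely UBE2C, PTTG1, NUSAP1 and KIF20A, 16 in MEC2 and 12 in PCL12, against 9.82%, 14.4% and 12.2% of the genes with at least 10 CPM. KIF20A was the 1 gene lower in all 9 pairs.

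With the replicate as a block within each line, 0 of the 37 genes passed an adjusted p of 0.05 by edgeR, against 0.135%, 0.333% and 0.0471% of all genes in HG3, MEC2 and PCL12 and 0.555% over the lines, so that more genes were called by this fit in general. At an unadjusted P under 0.05 the counts rose to 1 in HG3, which was ECT2, to 5 in MEC2, which were CDC20, CCNB1, CCNB2, BIRC5 and UBE2C, and to 3 over the lines, which were KIF20A, NDC80 and UBE2C, and stayed at 0 in PCL12. Without the block and without both libraries rich in mitochondrial counts, the Log2FC of ECT2 in HG3 was 0.08, and those of the 5 genes in MEC2 ran from -0.23 for CCNB2 to -0.12 for BIRC5. Over all genes the shares at this P were 3.59% in HG3, 3.41% in MEC2, 4.54% over the lines and 1.69% in PCL12.

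**Figure D4:**
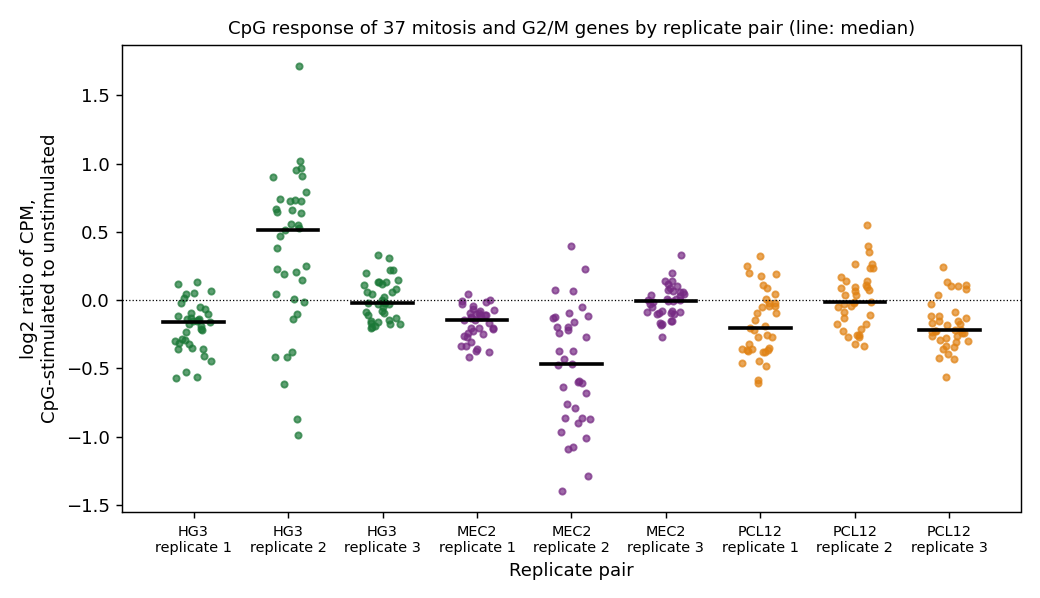
Log2 ratio of CpG-stimulated to unstimulated CPM in each of the 9 replicate pairs for the 37 genes; each point is 1 gene and the bars are medians. Medians run from -0.47 in MEC2 replicate 2 to 0.51 in HG3 replicate 2, and the points of the 2 pairs spread wider than those of the others.

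Differences in CpG response between lines were tested as interaction terms, and 0 of the 37 genes passed an adjusted p or an unadjusted P of 0.05 by edgeR without the block. Over all genes, 4.1%, 4.16% and 3.23% passed the unadjusted P for MEC2 minus HG3, PCL12 minus HG3 and PCL12 minus MEC2, and 0%, 0.00314% and 0% an adjusted p in the lower direction, with 0% in the higher direction. The smallest P for MEC2 minus HG3 was that of CCNB2 (-0.67, SE = 0.39, adjusted p = 1), that for PCL12 minus HG3 was of DLGAP5 (-0.502, SE = 0.39, adjusted p = 1), and that for PCL12 minus MEC2 was of CDK1 (0.43, SE = 0.35, adjusted p = 1). As libraries were left out, that of DLGAP5 ran from -0.795 without CpG-stimulated to -0.21 without unstimulated PCL12 replicate 3, and that of CDK1 from 0.27 without unstimulated MEC2 replicate 2 to 0.70 without unstimulated PCL12 replicate 3. With the replicate as a block, 0 genes of the list passed an adjusted p, against 0.141%, 0.069% and 0.0126% of all genes, but 6 passed the unadjusted P for MEC2 minus HG3, against 3.53% of all genes. They were ECT2, CCNA2, CCNB1, DLGAP5, CCNB2 and BIRC5, all lower in MEC2 relative to HG3, with a Log2FC of -0.72 for ECT2 to -0.58 for CCNB1. HG3 replicate 2 and MEC2 replicate 2, the pairs with a library rich in mitochondrial counts, enter this difference. In the fit without the block and without both of these libraries, the Log2FC of the 6 genes was closer to 0 than with all libraries, at -0.16 against -0.58 for ECT2, -0.06 against -0.58 for CCNA2, -0.31 against -0.53 for CCNB1, -0.29 against -0.57 for DLGAP5, -0.42 against -0.67 for CCNB2 and -0.25 against -0.53 for BIRC5. For PCL12 minus HG3 and PCL12 minus MEC2 the blocked counts were 0 and 0, against 2.39% and 1.36%.

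Transcript length moved with the values within several libraries, both libraries rich in mitochondrial counts among them. Spearman's rho of length and the shift of a gene against the other replicates of its group ran over the 18 libraries from -0.58 to 0.56 across the 37 genes and from -0.53 to 0.47 across all genes with at least 10 CPM and a length. Other libraries came close to these ends, with rho across the 37 genes of -0.56 in CpG-stimulated MEC2 replicate 1, 0.54 in unstimulated HG3 replicate 3 and 0.53 in unstimulated PCL12 replicate 2. Because a shift is taken against the other replicates, 1 library also enters the values of the others in its group. The canonical transcripts of the 37 genes span 715 to 12716 bases in GENCODE 44, with a median of 3016 bases. In unstimulated HG3 replicate 2, against the other replicates of its group, the 12 genes with under 2200 bases were shifted by a median log2 of 0.27 and the 10 genes with over 4000 bases by -0.46. UBE2C, with 777 bases, was shifted by 1.52 and PTTG1, with 715 bases, by 1.28, whereas ECT2, with 4136 bases, was shifted by -1.74 and MKI67, with 12716 bases, by -1.06. Across the 37 genes of that library Spearman's rho of shift and length was -0.58, and across the 8916 genes with at least 10 CPM and a length it was -0.53.

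In CpG-stimulated MEC2 replicate 2 the direction was the opposite. The 12 short genes were shifted by -0.52 and the 10 long genes by 0.05, BIRC5 by -1.29, ASPM, with 10863 bases, by 0.57 and MKI67 by 0.44. Spearman's rho was 0.56 across the 37 genes and 0.33 across the 8916, and the latter was no higher than the 0.33 of CpG-stimulated HG3 replicate 3 or of CpG-stimulated PCL12 replicate 2, whose mitochondrial shares were within the range of the other libraries. These rho values are across genes of 1 library, which share its depth and preparation and are not independent. With a trend on length removed from each library, an alternative chosen after seeing the data, 24 of the 37 genes were called higher in MEC2 than in HG3, and 0 genes passed an adjusted p of 0.05 upon CpG. What produced the shift in these libraries was not tested.

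**Figure D5:**
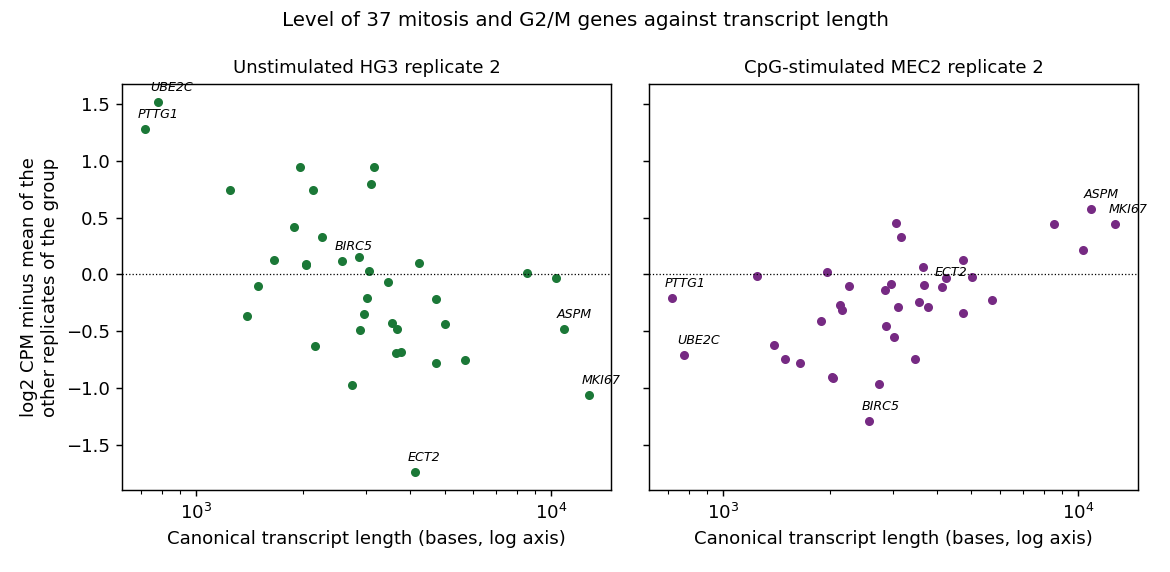
Log2 shift of each of the 37 genes in a library against the mean of the other replicates of its group, by canonical transcript length in bases on a log axis, for unstimulated HG3 replicate 2 and CpG-stimulated MEC2 replicate 2. The points fall with length in the HG3 library, with UBE2C at 1.52 and ECT2 at -1.74, and rise with length in the MEC2 library.

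Other lists of the cell cycle gave the setting of these differences. Their counts stand beside the shares of all genes tested. In MEC2 against HG3 4.81% were called higher and 4.97% lower. In PCL12 against HG3 these shares were 4.87% and 4.57%, and in PCL12 against MEC2 1.53% and 0.524%. Of 55 further genes of G2/M, 31 were higher and 0 lower in MEC2 than in HG3, with a median Log2FC of 0.90, close to that of the 37 genes. The smallest adjusted p values were those of DEPDC1 (Log2FC = 6.36, adjusted p = 3.082e-05) and ARHGAP11A (Log2FC = 1.62, adjusted p = 0.000281). DEPDC1, a gene of mitosis, measured 0.286, 1.08 and 0.079 CPM in HG3, 42.4, 29.5 and 33.1 CPM in MEC2, against 17.1, 19.00 and 35.9 CPM in PCL12, with 3 counts in the lowest HG3 library. Its highest HG3 library lay far below the lowest library of either other line. In PCL12 against HG3, 6 of the 55 were higher, with the smallest P for DEPDC1 (Log2FC = 5.82, adjusted p = 6.254e-05) and FAM83D (Log2FC = 1.61, adjusted p = 0.000392). PIMREG was lower (Log2FC = -1.93, adjusted p = 0.00223). KIFC1, a spindle motor, was lower in PCL12 than in MEC2 (Log2FC = -1.36, adjusted p = 0.0058). PIMREG, like LIN54, CDKN2C, CDKN1C, CDKN2B and GINS2 in the paragraphs that follow, was named after its values were seen, to complete a count.

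Genes of the G1/S transition and DNA replication differed in the same direction. Of 34 such genes, 20 were higher and 0 lower in MEC2 than in HG3, with a median Log2FC of 1.08. Those with the smallest P were E2F2 (Log2FC = 1.59, adjusted p = 0.00044) and UHRF1 (Log2FC = 1.17, adjusted p = 0.00239). In PCL12 against HG3, 9 were higher, with a median of 0.76, of which 1 call was left without PCL12 replicate 3. Among them were GINS4 (Log2FC = 1.64, adjusted p = 0.0103) and ORC1 (Log2FC = 1.63, adjusted p = 0.0115), both of DNA replication. In PCL12 against MEC2 0 passed by edgeR, and 4 were lower at an unadjusted P under 0.05. At that P 1461 of the 31872 genes tested were lower, as were 718 of the 9306 with at least 10 CPM. With 4 genes, this count does not set the list apart. The difference between MEC2 and HG3 was therefore seen in genes of both phases.

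Of 16 genes of the anaphase-promoting complex and its regulators, 0 were called in MEC2 against HG3 by edgeR, 1, FBXO5, passed an unadjusted P of 0.05, and the median Log2FC was 0.16 with 13 of 16 positive. Few calls would stand in a list of this size at the shares called among all genes, so the count of 0 does not set this list apart. FBXO5, an inhibitor of the complex, was lower in PCL12 than in MEC2 (Log2FC = -1.13, adjusted p = 0.0311). Among 14 regulators of the MuvB and DREAM complexes, 3 were higher in MEC2 than in HG3, which were E2F8 (Log2FC = 1.71, adjusted p = 0.000224), a repressor induced at S phase, E2F5 (Log2FC = 1.58, adjusted p = 0.00237) and LIN54 (Log2FC = 1.08, adjusted p = 0.0185), the MuvB subunit that binds the CHR. RBL2, which encodes the pocket protein p130 of resting cells, was lower (Log2FC = -0.72, adjusted p = 0.0314). E2F5 was also higher in PCL12 than in HG3 (Log2FC = 1.85, adjusted p = 0.000475) and RBL2 was lower (Log2FC = -1.04, adjusted p = 0.00176). E2F8 was lower in PCL12 than in MEC2 (Log2FC = -1.33, adjusted p = 0.0111).

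Among 8 genes that restrain the cycle, 2 were higher and 2 lower in MEC2 than in HG3. CDKN2A, which encodes the CDK4 and CDK6 inhibitor p16, was higher in MEC2 than in HG3 (Log2FC = 1.63, adjusted p = 0.00129) and in PCL12 than in HG3 (Log2FC = 2.34, adjusted p = 2.061e-05). CDKN1A, which encodes the CDK inhibitor p21, was lower in PCL12 than in HG3 (Log2FC = -3.17, adjusted p = 1.550e-05) and lower than in MEC2 (Log2FC = -1.69, adjusted p = 0.0231), and it was also lower in MEC2 than in HG3 (Log2FC = -1.48, adjusted p = 0.0167). The others called were the CDK inhibitor genes CDKN2C, higher in MEC2 than in HG3 (Log2FC = 1.97, adjusted p = 0.00483) and lower in PCL12 than in MEC2 (Log2FC = -1.72, adjusted p = 0.0416), and 2 genes of low level. CDKN1C, called lower in MEC2 than in HG3, measured 0.462, 2.22 and 2.58 CPM in HG3 and 0.057, 0.122 and 0.057 CPM in MEC2, where every unstimulated library was at or under the floor of 3 counts. CDKN2B, called higher in PCL12 than in HG3, measured 0.330, 0 and 0.658 CPM in HG3 and 5.83, 9.20 and 0.905 CPM in PCL12. Upon CpG, 0 genes of these lists passed an adjusted p of 0.05 by edgeR in any line. At an unadjusted P under 0.05 there were PIMREG in PCL12 and GINS2 in MEC2, both lower. Over all genes 2.09% in PCL12 and 2.46% in MEC2 passed this P, so these counts do not set the lists apart.

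Many calls of these other lists between lines rested on 1 library, by the adjusted p of edgeR with each unstimulated library left out in turn. Of the 31 further G2/M genes called higher in MEC2 than in HG3, 14 lost the call without at least 1 library and 19 were left without HG3 replicate 3. Of the 20 G1/S genes 14 lost it, and 8 were left without MEC2 replicate 3. In PCL12 against HG3, 3 of the 6 further G2/M genes called higher lost the call, and all 9 G1/S genes did. For these lists 3 and 1 were left without PCL12 replicate 3, and 1 and 0 without PCL12 replicates 2 and 3. Of the genes named, in MEC2 against HG3, the calls ended for LIN54 (up to 0.062, without HG3 replicate 2), CDKN1A (0.101, without HG3 replicate 3), CDKN1C (0.135, without MEC2 replicate 1) and RBL2 (0.135, without HG3 replicate 1). In PCL12 against HG3 they ended for GINS4 (0.0768) and ORC1 (0.077), both without PCL12 replicate 3, and for CDKN2B (0.0983, without HG3 replicate 1). In PCL12 against MEC2 all 5 named calls ended, for FBXO5 (0.22), CDKN2C (0.219) and E2F8 (0.0752) without PCL12 replicate 1 and for CDKN1A (0.136) and KIFC1 (0.0549) without MEC2 replicate 2. Without PCL12 replicates 2 and 3, the calls of FAM83D (0.0673), PIMREG (0.0658), E2F5 (0.12) and RBL2 (0.077) in PCL12 against HG3 ended as well, whereas those of DEPDC1, CDKN1A and CDKN2A held. The calls named above for DEPDC1, ARHGAP11A, E2F2, UHRF1, E2F8, E2F5, CDKN2A and CDKN2C in MEC2 against HG3 held with every such library left out.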

How the data were processed

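RNA of 18 samples of the CLL cell lines HG3, MEC2 and PCL12 was sequenced. Libraries were made, per the labels, with a stranded QuantSeq kit, whereas the study's methods name a stranded protocol of reverse orientation without a kit and another extraction kit than the labels. Whether reads cover whole transcripts or only their 3' ends is therefore not settled here, and this limits what trends on transcript length mean. Per the submitters' processing notes the authors used FastQC, MultiQC, Trimmomatic, STAR and featureCounts with hg38, and deposited whole-number counts per gene with no normalization. Tool versions, the annotation, the strand setting used in counting and the treatment of duplicates are not given in the sources used here. Without that setting, reads of the 14 genes that share exon bases with a gene on the opposite strand, and of the 4 that share them on the same strand, could be split between genes.

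From these counts, edgeR 4.0.16 in R 4.3.3 was used to fit 6 group means over all 18 libraries with TMM factors and a robust quasi-likelihood test, for the 31872 genes with at least 10 counts in all. P values were adjusted over all of these genes by Benjamini-Hochberg, and a gene was called at an adjusted p under 0.05. Log2FC intervals are at 95%, and group values are TMM-scaled CPM, mean ± SD. Totals of 20382943 to 67308932 counts place 3 counts at 0.0429 to 0.155 CPM. These floors and intervals cover counting error or the spread between libraries only. Scripts were tested on simulated data. DESeq2 1.42.0, limma 3.58.1 (voom), other scalings and filters, and libraries left out were alternatives, and 2 alternatives, without the libraries rich in mitochondrial counts and with a length trend removed, were added after seeing the data.

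Groups came from the titles. Same-numbered samples were paired within a line, as the series design states, and deviations from group means over 9306 genes correlated within pairs at 0.431, 0.459 and 0.713 in HG3, 0.300 in MEC2 replicate 1, 0.129 and 0.757 in MEC2 replicates 2 and 3, and 0.738, 0.652 and 0.598 in PCL12. The 37 genes and the other lists were chosen with earlier results of these data known. By the rule for named genes, all 37 are given with levels. Full statistics go to genes called upon CpG, or else the 2 with the smallest P, to the 3 highest and 3 lowest Log2FC in each comparison of lines, and to the smallest P of each interaction. For the other lists they go to the 2 called genes with the smallest P, and 1 gene of the list that restrains the cycle is not reported here. Promoters were read from RefSeq on GRCh38.p14, and transcript lengths from GENCODE 44 on GRCh38. Figures were drawn with matplotlib 3.10.9 from Python 3.11.15.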

Additional observations from a re-analysis of the deposited data

How the results depend on the processing

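The higher level of the genes in MEC2 than in HG3 held under every alternative, with 18 to 26 genes called as libraries were left out, 19 when the fit held only the libraries of the comparison, 28 by DESeq2 and a median Log2FC of 0.91 to 1.10 as libraries were left out. In the same comparison the values near 0 changed sign. PTTG1 gave 0.12 by limma-voom, 0.083 with library totals, -0.27 to 0.53 as libraries were left out (0.53 without unstimulated HG3 replicate 2), 0.17 without unstimulated MEC2 replicate 3, 0.51 without both libraries rich in mitochondrial counts and 0.36 with the length trend removed. AURKB gave 0.089 by limma-voom, 0.11 with library totals, -0.19 to 0.30 as libraries were left out (0.30 without HG3 replicate 2, 0.0016 without MEC2 replicate 1, 0.11 without MEC2 replicate 2), 0.285 without both libraries rich in mitochondrial counts and 0.16 with the length trend removed. In HG3 upon CpG, PTTG1 and UBE2C turned to 0.078 and 0.22 without unstimulated HG3 replicate 2 and to 0.051 and 0.19 without both libraries rich in mitochondrial counts. Over the libraries left out they ran from -0.73 to 0.078 and from -0.78 to 0.22.

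For PCL12 against HG3, 0 to 10 genes were called higher and 0 to 1 lower as libraries were left out, with medians of 0.32 to 0.54. The 1 lower call, PTTG1, became 0 by limma-voom, with library totals, with the replicate block, with only the libraries of the comparison, without PCL12 replicates 2 and 3, without both libraries rich in mitochondrial counts and with the length trend removed. Without PCL12 replicates 2 and 3, 0 were called higher. There the lone PCL12 sample of each group is assumed to vary like the other groups. For PCL12 against MEC2, 0 to 4 genes were called lower as libraries were left out, with medians of -0.77 to -0.48, 6 by DESeq2, 0 with only the libraries of the comparison, 0 without PCL12 replicates 2 and 3, 6 without both libraries rich in mitochondrial counts and 5 with the length trend removed.

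Upon CpG, 0 genes passed an adjusted p of 0.05 under any alternative. At an unadjusted P under 0.05 the count of 0 became 1 in HG3, 5 in MEC2, 3 over the lines and 6 for the difference MEC2 minus HG3 with the replicate block, 1 in MEC2 by limma-voom and 1 over the lines without the filter, and ran from 0 to 2 in HG3 (2 without unstimulated replicate 3), 0 to 2 in MEC2 (2 without CpG-stimulated replicate 1 or unstimulated replicate 3), 0 to 1 in PCL12 (1 without CpG-stimulated replicate 3) and 0 to 3 over the lines (3 without CpG-stimulated HG3 replicate 2) as libraries were left out. Medians upon CpG then ran from -0.07 to 0.24 in HG3, -0.34 to -0.14 in MEC2, -0.24 to 0.043 in PCL12 (0.043 without unstimulated replicate 3) and -0.15 to -0.05 over the lines. With the replicate number as a block, 28 of the 37 genes were called higher in MEC2 than in HG3, and the named genes that lost a call at an adjusted p were PTTG1 in PCL12 against HG3 and, from the other lists, CDKN1A in PCL12 against MEC2. Across lines the samples share only a number, so the block there is no pairing. The cause of these changes was not tested, other than that fewer libraries leave a wider spread. With 3 libraries a group, the 95% intervals upon CpG reached -1.19 for UBE2C and 1.15 for ECT2 in HG3. Changes of a size within such an interval are thus not excluded for that gene.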

Other observations

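Processed copies of genes on the list gave counts of their own. CDC20P1, a pseudogene of CDC20, averaged 0.427 CPM in HG3, 2.83 CPM in MEC2 and 2.39 CPM in PCL12, with 1 to 189 counts per library, which is the order of CDC20 between HG3 and the other lines. AURKAPS1, a pseudogene of AURKA, averaged 10.3 CPM in HG3, 4.67 CPM in MEC2 and 4.27 CPM in PCL12, so that HG3 was the highest line, whereas it was the lowest for AURKA, with 31 to 684 counts. PTTG2 and PTTG3P, copies of PTTG1, held at most 12 and 3 counts in any library, and UBE2CP4, a copy of UBE2C, at most 18. Whether reads were moved between the genes and these copies was not tested.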
